A study of Mus musculus with 6 samples.

Results

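The 9 genes that receive, make and remove adenosine were compared between Sox9 KO and control libraries of cells sorted from the mouse olfactory bulb. They are the 4 adenosine receptors (Adora1, Adora2a, Adora2b and Adora3), the ecto-enzymes Entpd1, Entpd2 and Nt5e, adenosine kinase (Adk) and the nucleoside transporter Slc29a1. They were taken by symbol from the 24421 genes listed in each library, and all 9 passed the filter on low values that left 18413 genes. In the Sox9 KO libraries 6 of the 9 were called lower and 3 higher, at an adjusted p of 0.05 and at least 1.5-fold. Of all genes tested, 28.8% were called lower and 22.2% higher. The transcripts that fell were those of the A1, A2a and A2b receptors, of the ATPase Entpd2, of the AMP-cleaving enzyme Nt5e and of Adk, by between 1.51 and 5.30 on the log2 scale. Adora3, Entpd1 and Slc29a1 rose, with log2 fold changes of 2.09, 2.16 and 1.33. Cell type markers differed between the groups too, with all 12 listed astrocyte markers lower in KO and all 12 microglia markers higher. The part of these marker shifts in the changes was not tested.

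Adenosine outside the cell arises mostly from released ATP. Ecto-nucleotidases of the Entpd family cut ATP and ADP down to AMP, and Nt5e (CD73) turns AMP into adenosine. Adenosine is then sensed by 4 G protein-coupled receptors, of which the A1 and A3 receptors lower cyclic AMP through inhibitory G proteins and the A2a and A2b receptors raise it through stimulatory ones. The equilibrative transporter ENT1, encoded by Slc29a1, carries adenosine across the membrane along its gradient, and Adk phosphorylates it back to AMP inside the cell. In adult brain Adk is known chiefly as an astrocyte enzyme, A1 receptors are best known for damping synaptic transmission, and Entpd1 (CD39) is known as a surface enzyme of microglia.

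RNA-seq was carried out on cells sorted for TurboRFP from the olfactory bulbs of adult male mice, 4 weeks after injection of a virus. Both groups received AAV-GFAP-iCre-P2a-TurboRFP, in which a GFAP promoter drives the recombinase and the red protein, so that control cells also held Cre. The Sox9 KO libraries (n = 3) came from Sox9fl/fl mice and the WT libraries (n = 3) from C57BL/6J mice, while the strain label of both groups reads C57BL/6. Each library came from 1 mouse. Deletion depends on where that promoter is active, and purity was not measured after the sort but judged by the study from cell type markers in the RNA-seq.

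Sox9, the targeted transcription factor, had 5185, 6562 and 4921 normalized counts in the control libraries and 52.6, 64.3 and 57.7 in the KO libraries, a log2 fold change of -6.54 (SE 0.15, adjusted p = 2.5e-09). Normalized counts are reads per gene divided by 1 size factor per library. Each library held from 18242129 to 86906527 reads on genes, so that 1 read was worth between 0.395 and 1.58 normalized counts. Libraries of a group correlated across genes with r between 0.970 and 0.974 (control) and between 0.973 and 0.981 (KO).

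Cell type markers moved with the groups, and they stand beside every value given here. All 12 listed astrocyte markers were lower in the KO libraries, at an adjusted p of 0.05 and at least 1.5-fold as for all calls here, and their summed level was between 500857 and 556686 normalized counts in controls and between 36542 and 47091 in KO. All 12 microglia markers were higher, with sums between 169338 and 198357 in controls and between 606504 and 726671 in KO. Neuron markers were lower for 10 of 11 (17794 to 24130 against 2677 to 4860), and all 6 oligodendrocyte markers were lower (33180 to 57334 against 13874 to 23046). The 4 oligodendrocyte precursor markers were lower as well (1489 to 2282 against 144 to 314). Of 6 border macrophage markers 4 were lower and 2 higher (15021 to 22543 against 22220 to 25481), and of 6 endothelial markers 2 were lower and 2 higher (1163 to 1999 against 1733 to 2163). Of 5 mural cell markers 4 were lower (2320 to 2790 against 683 to 1044), as were 4 of 5 markers of olfactory ensheathing cells (3545 to 4742 against 1222 to 2630). Lymphocyte markers gave 0 calls among 5 (27.8 to 59.9 against 20.5 to 51.7), and all 3 measured neutrophil markers were lower (514 to 4082 against 94.3 to 508). No marker was at 0 throughout a group. The part of these shifts in the adenosine genes was not tested, and in such sorted bulk samples fewer cells of a type and less RNA per cell cannot be told apart.

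A gene was called changed at a Benjamini-Hochberg adjusted p of 0.05 over all genes tested and a change of at least 1.5-fold (limma on log2 of the normalized count plus 1). By this rule 28.8% of all genes tested were called lower and 22.2% higher, so that calls were common and the 6 lower and 3 higher adenosine genes must be read against those shares. Of all called genes 56.4% were lower, against 67.8% with scaling to the library total, 71.5% with that scaling without the ribosomal RNA gene Rn45s, and 43.5% with quantile normalization. These scalings moved the median of all genes by -0.23, -0.31 and 0.26 on the log2 scale. The KO libraries were all below the controls for 6 of the 9 genes and all above them for the other 3, and these patterns were seen in 34.7% and 32.4% of all genes tested. The median log2 fold change of the 9 genes was -1.84, and that of all tested genes was -0.07.

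**Figure D1:**
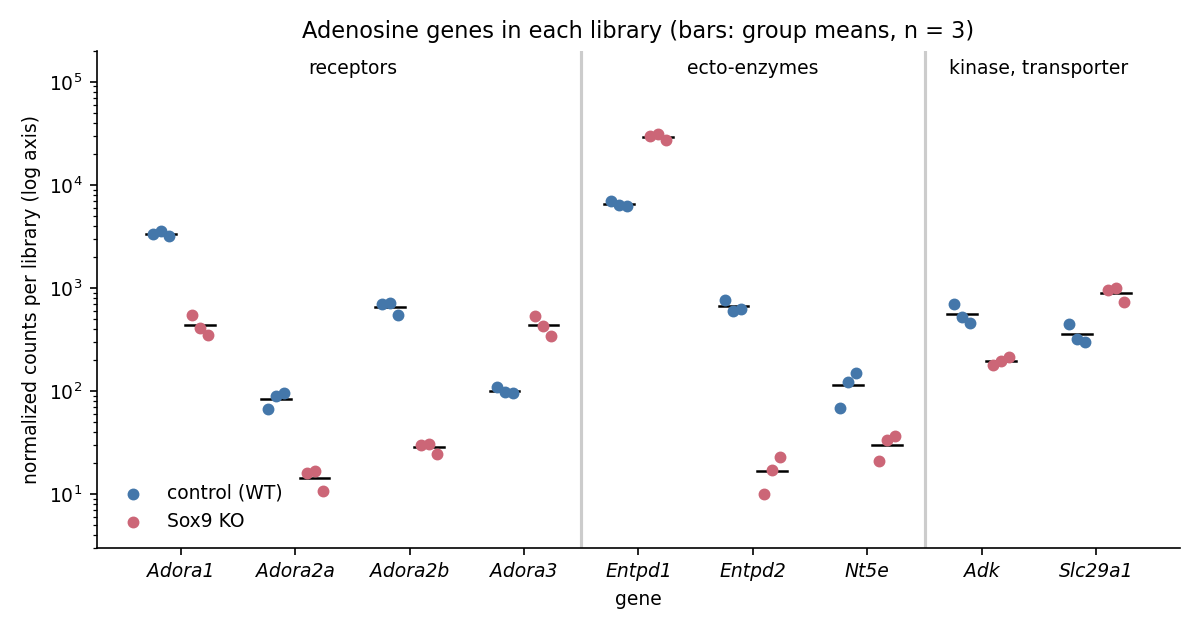
Normalized counts of the 9 adenosine genes (log axis) in each of the 3 control libraries (blue) and 3 Sox9 KO libraries (red), with bars at the group means. The groups are apart for every gene, with KO points higher for Adora3, Entpd1 and Slc29a1 and lower for the other 6.

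Adora1 encodes the A1 receptor, whose gene lies at chr1:134199223-134235431 of GRCm38 (mm10) on the minus strand, and per kb it was the most abundant adenosine receptor transcript in controls. It had 3355, 3555 and 3192 normalized counts in the control libraries and 547, 406 and 351 in the KO libraries. The control values lay close together, and the highest KO library was still far below the lowest control. The means were 3367 ± 182 and 435 ± 101 (SD, n = 3 each), which is 7.75-fold lower in KO, with a log2 fold change of -2.97 (SE 0.15, 95% interval -3.31 to -2.64, adjusted p = 9.0e-08). Of all genes tested, 7.20% had a lower log2 fold change. Mybph, on the opposite strand, overlaps 20.1% of the exon bases of Adora1, and it had only 8.77, 12.4 and 14.2 normalized counts in controls and 44.7, 15.8 and 10.6 in KO.

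Adora2b, the gene of the low-affinity A2b receptor (chr11:62248984-62266453, plus strand), showed the steepest fall among the receptors. Its normalized counts were 693, 717 and 549 in controls and 29.8, 30.8 and 24.3 in KO, which rest on 474, 1042 and 348 reads against 30, 78 and 16. All 3 KO libraries sat at nearly 1 level, well under every control. The means of 653 ± 91.1 and 28.3 ± 3.49 differ 23.1-fold, and the log2 fold change was -4.48 (SE 0.22, 95% interval -4.96 to -3.99, adjusted p = 6.4e-08). Genes with a still lower log2 fold change made up 1.11% of those tested.

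Adora2a (chr10:75316877-75334784, plus strand) encodes the A2a receptor, known from striatal neurons and blood vessels. It had 67.2, 88.8 and 94.6 normalized counts in controls and 15.9, 16.6 and 10.6 in KO. These are small numbers, from 46, 129 and 60 reads against 16, 42 and 7, and the groups did not overlap. The log2 fold change was -2.47 (SE 0.36, 95% interval -3.26 to -1.67, adjusted p = 0.00015), with an interval wider than for Adora1 and Adora2b. Under quantile normalization it was -1.64 (adjusted p = 0.0033).

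Adora3 was the only one of the 4 receptor genes that rose. It encodes the A3 receptor, which in rodents is known from mast cells and microglia (chr3:105870858-105908926, plus strand). Its normalized counts were 108, 97.0 and 94.6 in controls and 535, 426 and 345 in KO, and the lowest KO library was well above the highest control. The means of 99.9 ± 7.23 and 435 ± 95.5 give a 4.36-fold higher level, with a log2 fold change of 2.09 (SE 0.20, 95% interval 1.64 to 2.54, adjusted p = 8.1e-06). Tmigd3, which lies on the same strand, shares 20.9% of the exon bases of Adora3, and 643 of 2341 words of 30 bases in the Adora3 transcript also occur in Tmigd3. Reads there could have been counted for either gene or for neither, so that the level of Adora3 is uncertain to that extent. Tmigd3 itself had 23.4, 23.4 and 9.46 normalized counts in controls and 62.5, 55.3 and 63.8 in KO, and it was called higher too.

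**Figure D2:**
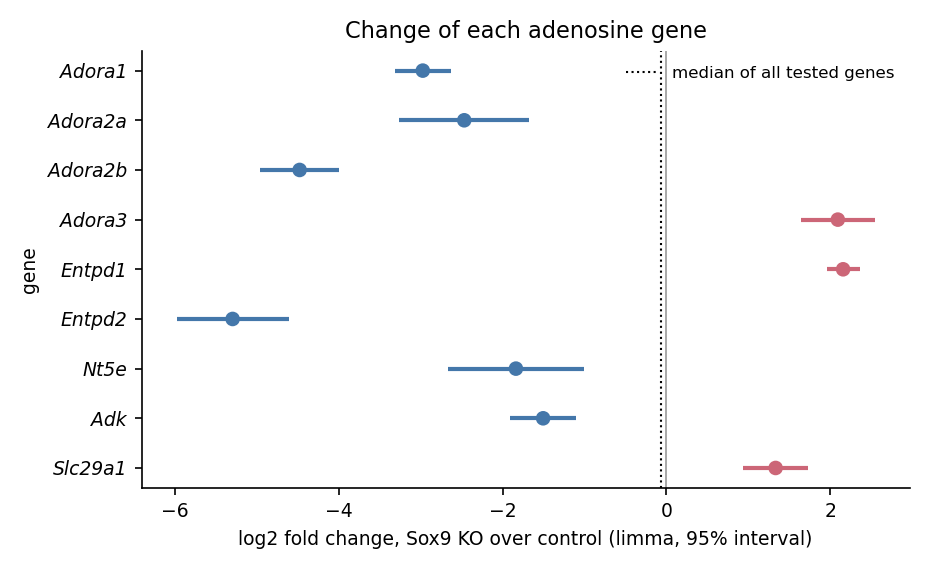
Log2 fold change of Sox9 KO over control for the 9 adenosine genes, with 95% intervals from limma (n = 3 libraries each) and a dotted line at the median of all tested genes. Entpd2 and Adora2b fell most, at -5.30 and -4.48, and the intervals of Adora3, Entpd1 and Slc29a1 lie above 0.

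Since the 4 receptors moved by unequal amounts, their make-up within a library was set out per kb of the longest coding transcript. In controls Adora1 made up 61.4% ± 1.64 (SD, n = 3) of the receptor level per kb, Adora2b 31.9% ± 2.29, Adora3 3.82% ± 0.31 and Adora2a 2.93% ± 0.64. In KO Adora3 made up 62.8% ± 0.44, Adora1 29.9% ± 1.05, Adora2b 5.34% ± 0.73 and Adora2a 1.90% ± 0.30. The mean share of Adora3 was thus higher in KO and those of the other 3 lower, while the summed level of all 4 fell from 1106 ± 82.9 to 292 ± 62.7 normalized counts per kb. These shares depend on the transcript length taken. With coding lengths alone, Adora3 had 2.45% in controls and 48.4% in KO, and Adora1 80.7% and 47.3%. The KO libraries of both then overlapped, at 47.9% to 49.2% for Adora3 and 45.9% to 48.2% for Adora1, so that which of them led in KO depends on the length. With all annotated exons, Adora3 had 2.71% and 55.0%, and Adora1 58.9% and 35.4%.

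**Figure D3:**
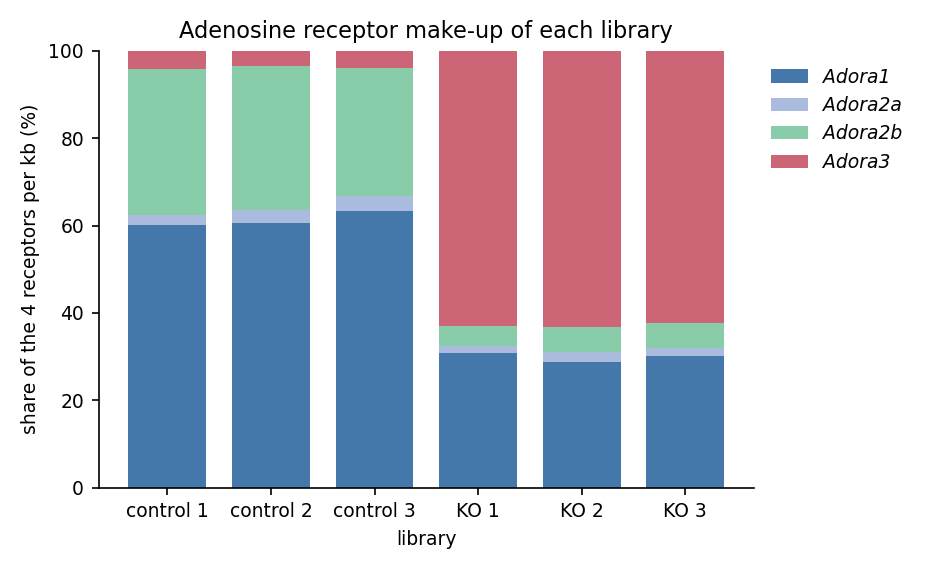
Share of each adenosine receptor (%) in the summed receptor level per kb of longest coding transcript, for each of the 6 libraries. Adora1 and Adora2b fill most of the 3 control bars, and Adora3 averages 62.8% of the 3 KO bars.

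Ratios of 2 genes were also taken within each library, on normalized counts with 1 added to each. The log2 ratio of Adora3 to Adora1 was -5.06 ± 0.12 in controls and 0.00 ± 0.06 in KO, a difference of 5.07. The ratio of Adora2b to Adora1 was lower in KO by a log2 difference of -1.50, and that of Adora2a to Adora1 was higher by 0.51. With 1 added, the groups did not overlap for any of these ratios. Without it, Adora2a to Adora1 overlapped, with a plain ratio of 0.0296 in WT replicate 3 and 0.0290 in KO replicate 1. With 3 libraries against 3 the two-sided exact permutation test cannot go below p = 0.1, and each ratio with 1 added gave that value.

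The ecto-enzymes moved apart as well. Entpd1 (CD39, chr19:40612366-40741602, plus strand) removes phosphates from ATP and ADP, and it was the most abundant of the 9 genes per kb in either group. It had 7003, 6362 and 6297 normalized counts in controls and 29493, 30783 and 27363 in KO, with narrow spreads and a wide gap between the groups. The means were 6554 ± 390.0 and 29213 ± 1727, a 4.46-fold higher level (log2 fold change 2.16, SE 0.09, 95% interval 1.95 to 2.36, adjusted p = 3.1e-08). Of all genes tested, 493 had a higher log2 fold change.

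Entpd2 (chr2:25395874-25401321, plus strand) encodes an ecto-ATPase that prefers ATP over ADP, and it showed the steepest fall of the 9 genes. Its normalized counts were 766, 594 and 619 in controls and 9.93, 16.97 and 22.8 in KO, or 524, 863 and 393 reads against 10, 43 and 15. Little of the transcript was left in any KO library. The level was 39.8-fold lower, with a log2 fold change of -5.30 (SE 0.31, 95% interval -5.98 to -4.61, adjusted p = 2.0e-07), and 42 of the genes tested had a lower one. Npdc1 lies on the same strand and shares 28.8% of the exon bases of Entpd2, and 583 of its 1906 words of 30 bases also occur in Npdc1, so that reads there are ambiguous. Npdc1 had 593, 662 and 523 normalized counts in controls and 35.7, 86.5 and 47.1 in KO, and it was called lower.

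Nt5e (chr9:88327197-88372092, plus strand), whose product CD73 releases adenosine from AMP, was per kb the lowest of the 3 ecto-enzymes in controls. It had 68.7, 122 and 148 normalized counts in controls and 20.8, 33.2 and 36.5 in KO. The control libraries were widely spread, yet the lowest of them stayed above every KO library. The means were 113 ± 40.5 and 30.2 ± 8.23, with a log2 fold change of -1.84 (SE 0.37, 95% interval -2.67 to -1.003, adjusted p = 0.0016). Its adjusted p was the highest of the 9, and under quantile normalization the log2 fold change was -0.98 (adjusted p = 0.033).

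Within libraries, the log2 ratio of Entpd1 to Entpd2 was 3.32 ± 0.12 in controls and 10.77 ± 0.62 in KO, a difference of 7.45. The ratio of Nt5e to Entpd2 differed by 3.46 on the same scale. No library of 1 group reached into the range of the other for either ratio (exact permutation p = 0.1 each, the smallest possible).

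Adk (chr14:21052574-21448569, plus strand) had 700.0, 527 and 459 normalized counts in controls and 179.7, 193 and 211 in KO. Every KO library was below every control, and the KO values were close to each other. The means were 562 ± 124 and 195 ± 15.8, with a log2 fold change of -1.51 (SE 0.18, 95% interval -1.91 to -1.10, adjusted p = 4.1e-05), the smallest fall among the 6 lower genes.

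Slc29a1 (chr17:45585200-45599606, minus strand), the gene of the transporter ENT1, had 441, 321 and 301 normalized counts in controls and 944, 993 and 731 in KO. The groups were apart, with KO replicate 3 the lowest of its group. The means were 355 ± 75.8 and 889 ± 139.6, with a log2 fold change of 1.33 (SE 0.18, 95% interval 0.94 to 1.73, adjusted p = 8.5e-05). An antisense gene, Gm17080, overlaps 6.86% of its exon bases. The log2 ratio of Slc29a1 to Adk was -0.66 ± 0.05 in controls and 2.18 ± 0.34 in KO, without overlap (difference 2.84, exact permutation p = 0.1, the smallest possible).

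Per kb of the longest coding transcript, the order of the 9 genes in controls was Entpd1 (1553 normalized counts per kb), Adora1 (678), Adora2b (354), Entpd2 (341), Adk (309), Slc29a1 (160.0), Adora3 (42.2), Adora2a (32.2) and Nt5e (28.3). The libraries of Adora2b and Entpd2 overlapped, as did those of Entpd2 and Adk and those of Adora2a and Nt5e, so that these neighbours were not separated. In KO the order was Entpd1 (6921), Slc29a1 (401), Adora3 (184), Adk (107), Adora1 (87.5), Adora2b (15.3), Entpd2 (8.56), Nt5e (7.55) and Adora2a (5.53). Here Adk overlapped Adora1, and Nt5e overlapped Entpd2 and Adora2a. Entpd1 led both orders with this length, with coding lengths and with all annotated exons. Lower places depend on the length in both groups. In controls, Adk was above Entpd2 with coding lengths (543 against 444 normalized counts per kb). With all exons Slc29a1 was above Adk there (88.5 against 65.9) and Adora2a above Adora3 (27.3 against 26.8), with overlapping libraries. In KO, Adk was below Adora1 with coding lengths (188 against 444) and with all exons (22.8 against 75.1). Adora3 and Adora1 overlapped in KO with coding lengths (455 and 444). At the bottom in KO, Entpd2 (11.2) was below Nt5e (17.5) and Adora2a (11.7) with coding lengths. With all exons Nt5e was below Adora2a in KO (3.51 against 4.69). The libraries of these genes overlapped in both cases.

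The adenosine genes were also taken relative to the summed markers of 2 cell types in the same library, as a description. Per 1000 summed microglia marker counts, Adora3 had 0.555 ± 0.016 in controls and 0.632 ± 0.095 in KO, with overlapping libraries, and Entpd1 had 36.4 ± 1.13 and 42.8 ± 2.16, without overlap. Slc29a1 had 1.95 ± 0.25 and 1.29 ± 0.08 per 1000. The 3 genes that rose moved by 0.17, 0.23 and -0.59 on the log2 scale (1 added to each gene's count) over microglia markers. By themselves their log2 fold changes were 2.09, 2.16 and 1.33. Over the summed astrocyte markers they moved by 5.78, 5.84 and 5.02.

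Per 1000 summed astrocyte marker counts, Adora1 had 6.35 ± 0.06 in controls and 10.7 ± 3.66 in KO. On this scale Adora2b went from 1.23 ± 0.11 to 0.689 ± 0.11 and Entpd2 from 1.25 ± 0.18 to 0.398 ± 0.15, log2 differences of -0.79 and -1.61. These were the only 2 of the 9 genes that were lower relative to the summed astrocyte markers. Adora1, Adora2a, Nt5e and Adk were higher on that scale, by 0.71, 1.22, 1.85 and 2.18, although each was lower in normalized counts. The sum depends most on Slc1a2, with a control mean of 258895 and a log2 fold change of -4.30. Slc1a3 and Agt fell less than Adora1 (-2.72 and -2.73 against -2.97), and the other listed astrocyte markers fell more. Fgfr3 fell more than Adora2b (-5.25 against -4.48), and the other listed astrocyte markers fell less than Adora2b. Entpd2 fell about as much as Fgfr3 (-5.30 and -5.25). The direction for Adora1 and for Adora2b thus depends on the marker taken. Over the summed microglia markers Adora1, Adora2a, Adora2b, Entpd2, Nt5e and Adk moved by -4.90, -4.39, -6.40, -7.22, -3.76 and -3.43. Which cells held the transcripts was not measured in these bulk libraries.

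**Figure D4:**
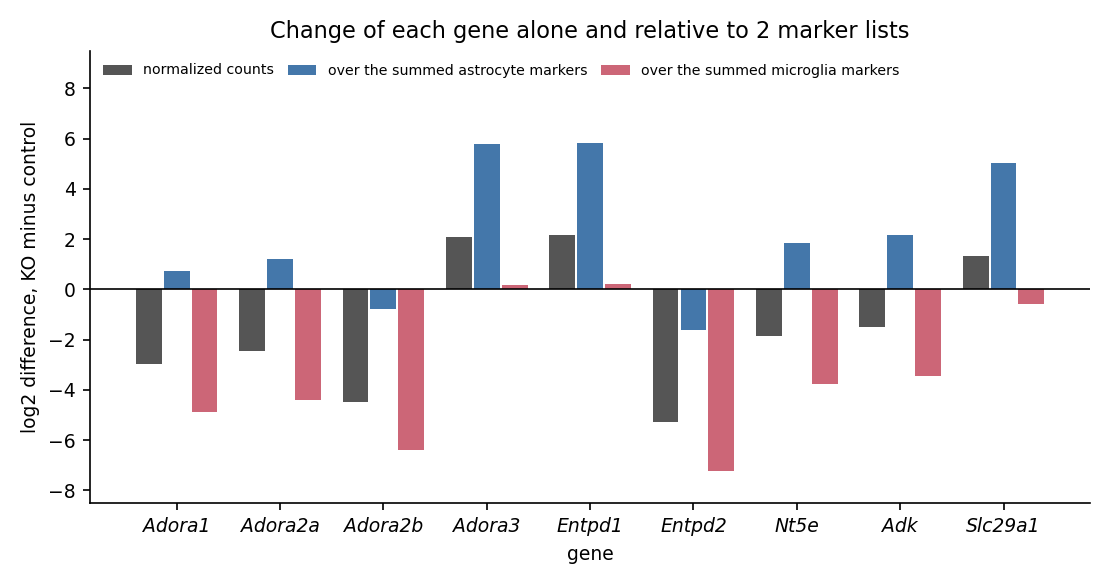
Log2 difference of Sox9 KO minus control for each adenosine gene in normalized counts (grey), relative to the summed astrocyte markers (blue) and relative to the summed microglia markers (red), as means over 3 libraries a group. Adora3 and Entpd1 lie at 0.17 and 0.23 relative to the summed microglia markers. Only Adora2b and Entpd2 lie below 0 relative to the summed astrocyte markers.

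Since Sox9 was the deleted factor, the 250 bases before each start site were read from RefSeq (GRCm38.p6) and searched on both strands for the SOX core motif, written as ACAAAG or ACAATG. Windows were found for 8 of the 9 genes, not for Adora2a. The 3 promoters below belong to the genes that fell most among those with a window, each printed 5′ to 3′ along the gene's strand, with a motif match in capitals.
Adora1 (chr1:134235458-134235707, minus strand): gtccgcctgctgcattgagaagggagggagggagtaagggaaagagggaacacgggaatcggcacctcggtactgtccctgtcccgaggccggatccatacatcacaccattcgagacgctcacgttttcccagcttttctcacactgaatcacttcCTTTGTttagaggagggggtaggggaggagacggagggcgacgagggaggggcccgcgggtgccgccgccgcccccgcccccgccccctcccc
Adora2b (chr11:62248734-62248983, plus strand): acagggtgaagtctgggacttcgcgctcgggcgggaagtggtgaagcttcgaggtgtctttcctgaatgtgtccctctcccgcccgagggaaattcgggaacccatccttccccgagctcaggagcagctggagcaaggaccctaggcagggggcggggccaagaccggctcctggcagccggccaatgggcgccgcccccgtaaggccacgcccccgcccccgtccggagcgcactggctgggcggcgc
Entpd2 (chr2:25395624-25395873, plus strand): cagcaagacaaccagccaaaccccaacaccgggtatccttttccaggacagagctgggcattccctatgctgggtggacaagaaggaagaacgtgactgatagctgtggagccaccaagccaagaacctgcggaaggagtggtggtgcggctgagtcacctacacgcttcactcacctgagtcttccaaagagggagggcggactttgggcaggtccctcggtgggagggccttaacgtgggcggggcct
The printed window, at the first of 2 Adora1 start sites, held 1 match, 93 to 88 bases before the start, and the window of the second held 0. The match reads ACAAAG on the opposite strand. No match was in the windows of Adora2b or Entpd2. The only other member with a match was Slc29a1, which rose, at 194 to 189 bases before the third of its 8 start sites.
Slc29a1, the match with 20 bases on each side: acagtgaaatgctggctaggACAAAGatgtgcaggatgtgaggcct
In all, 2 of 8 adenosine genes held a match, against 28.2% of 27025 mouse genes, and 2 of 18 of their windows (11.1%) against 25.2% of 32851 windows. A match is only these letters in this window and marks no binding, and its absence tells nothing of sites elsewhere.

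The genes around the 9 were described from a list of 56 other enzymes, transporters, G protein subunits and adenylyl cyclases, of which 55 were tested. Of these, 25 (45.5%) were called lower and 11 (20%) higher, and 19 were not called. Over all genes tested the shares were 28.8% and 22.2%. Entpd8 was not tested and had 1 read in WT replicate 2 and 0 in the other 5 libraries.

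Among 10 other extracellular enzymes of nucleotides and adenosine, 4 were lower and 3 higher, with a median log2 fold change of -0.83. Alpl, the tissue-nonspecific alkaline phosphatase that can also strip phosphate from AMP, fell from 654 to 20.8 normalized counts (log2 fold change -4.90, adjusted p = 6.3e-08). Enpp2, or autotaxin, which makes lysophosphatidic acid, fell from 12545 to 1826 (-2.79, adjusted p = 9.6e-08), and the NAD-consuming enzyme Cd38 fell from 4868 to 2655 (-0.90, adjusted p = 0.0062). Ada, which deaminates adenosine to inosine, had 40.9, 77.8 and 74.1 normalized counts in controls and 179.7, 141 and 201 in KO (log2 fold change 1.46, adjusted p = 0.0017). Enpp1, which cuts ATP to AMP and pyrophosphate, rose from 652 to 1844 (1.49, adjusted p = 9.5e-06), and the NAD-cleaving enzyme Bst1 from 16.0 to 247 (4.27, adjusted p = 0.00010).

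In the list of intracellular enzymes of adenosine and AMP, which also holds relatives of them, 10 of 21 genes were lower and 3 higher. The median was -0.37. Ahcyl1 and Ahcyl2, relatives of the enzyme that splits S-adenosylhomocysteine into adenosine and homocysteine, fell from 13051 to 4811 and from 4892 to 2594 (-1.44 and -0.92, adjusted p = 1.5e-07 and 9.1e-05). Ampd3, which deaminates AMP, fell from 3344 to 1007 (-1.72, adjusted p = 1.2e-06). Of the 3 called higher, the intracellular nucleotidase Entpd7 went from 657 to 1647 (1.33, adjusted p = 3.9e-06). The phosphorylase Pnp2 had a log2 fold change of 0.61 (adjusted p = 0.0052) and Ampd1 of 2.73 (adjusted p = 0.019), the latter from 0, 0 and 7.88 normalized counts in controls and 14.9, 9.08 and 15.2 in KO. The call of Ampd1 was lost on the reads with edgeR (adjusted p = 0.087) and DESeq2 (adjusted p = 0.10), and kept with limma-voom. This call was also lost without WT replicate 1 or 2 or KO replicate 1 or 3. That of Pnp2 was lost with scaling to the total, with or without Rn45s, and without WT replicate 3 or KO replicate 1 or 3, so that only 1 of the 21 was called higher when KO replicate 1 or KO replicate 3 was left out.

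Other carriers of nucleosides and nucleotides gave 2 lower and 3 higher of 7. Slc29a2, the second equilibrative nucleoside transporter, had 283, 221 and 230.1 normalized counts in controls and 70.5, 64.7 and 44.1 in KO (log2 fold change -2.04, adjusted p = 4.8e-05), opposite in direction to Slc29a1. Slc29a4, a carrier of monoamines and adenosine, fell from 50.3 to 9.49 (-2.67, adjusted p = 0.0051). Slc29a3, a nucleoside carrier of intracellular membranes, rose from 12155 to 36553 (1.59, adjusted p = 2.6e-07). Slc17a9, which loads ATP into vesicles, rose from 52.9 to 143 (1.42, adjusted p = 0.00097), and the sodium-coupled carrier Slc28a2 from 52.2 to 122 (1.33, adjusted p = 0.0080).

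Downstream of the receptors, 4 of 8 G protein alpha subunits were lower and 0 higher. Gnao1, an inhibitory-class subunit abundant in brain, fell from 15059 to 902 (-4.07, adjusted p = 3.8e-09), Gnai1 from 1768 to 301 (-2.58, adjusted p = 1.9e-06) and Gna11, of the Gq class, from 2759 to 628 (-2.14, adjusted p = 2.0e-07). Gnal, the stimulatory subunit of olfactory neurons, was the fourth that fell, from 947 to 489 (-0.94, adjusted p = 0.00015), named here after its values were seen. Gnas, the general stimulatory subunit, had a log2 fold change of -0.23, and Gnai2, Gnai3 and Gnaq had 0.19, 0.45 and 0.58, all short of 1.5-fold. Among the 9 adenylyl cyclases, which make cyclic AMP, 5 were lower and 2 higher. Adcy2, Adcy6 and Adcy1 had log2 fold changes of -3.97, -3.33 and -1.41 (adjusted p = 1.9e-07, 2.8e-06 and 0.0048). Adcy7 rose from 1147 to 5132 normalized counts (2.17, adjusted p = 1.5e-07) and Adcy4 from 51.0 to 253 (2.23, adjusted p = 0.00010).

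**Figure D5:**
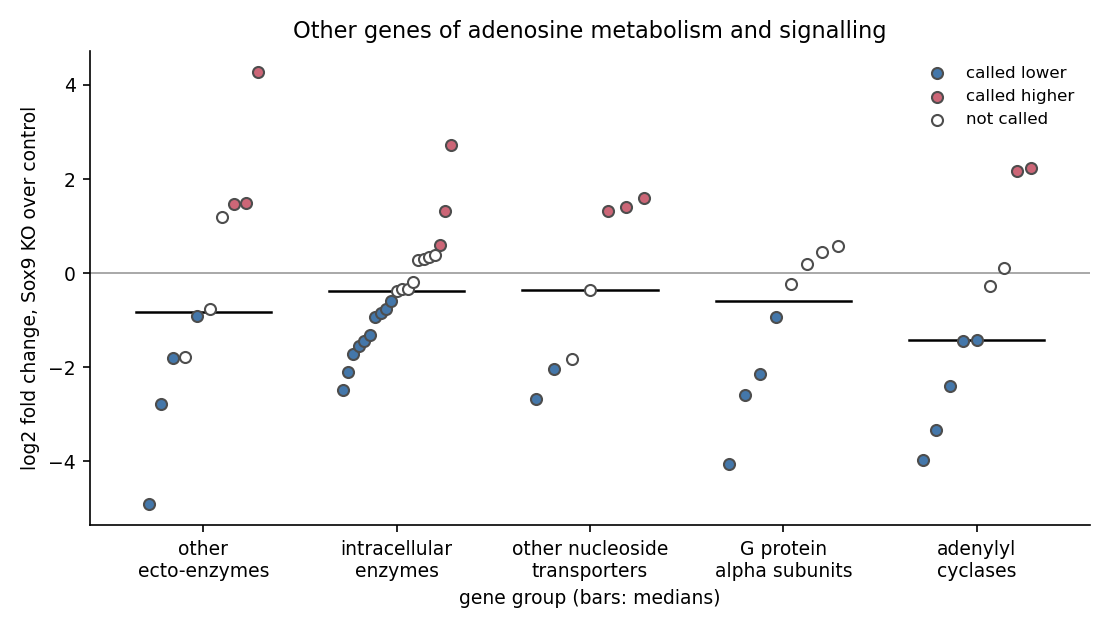
Log2 fold change of Sox9 KO over control for the 55 tested genes of 5 further groups, in blue where called lower, in red where called higher and open where not called, ordered by value within a group, with bars at the medians. Each group but the G protein alpha subunits holds calls in both directions.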

How the data were processed

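RNA was sequenced from 3 control and 3 Sox9 KO libraries of sorted olfactory bulb cells. Per the submitters' notes and the study's methods, the authors mapped reads to mm10 with STAR 2.5.0a, counted them per gene and normalized them with DESeq2 1.20.0. For the gene annotation, strand setting and handling of reads in exons shared by genes, no statement was found: not given in the sources used here. In the deposited signal values, named RPM, each library's counts had been divided by its own size factor, and 100% of values came back as whole reads within 0.01 read. They are called normalized counts. Of the gene symbols, 27 are dates and were left as they are.

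Genes with a mean of at least 1 (18413, with 6008 left out) were fitted as log2(normalized count + 1) in limma 3.58.1 (R 4.3.3), with a variance trend, two-sided p-values and Benjamini-Hochberg adjustment over all genes. The added 1 makes fold changes of low genes too small. The fit was also run on simulated data in which few genes changed, which does not test it where many genes change, as here. Recovered reads were also tested with limma-voom, edgeR 4.0.16 and DESeq2 1.42.0. Ratios within libraries were compared by exact permutation tests. Exon overlaps and transcript lengths came from GENCODE (GRCm38), and words of 30 bases were compared between transcripts. Alternatives covered the pseudocount, filter, scaling, variance model, thresholds, replicate block and left-out libraries.

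The 9 genes and all gene lists were chosen with earlier results of these data known. Further pathway genes were named by a rule: in each group, up to 3 called genes in each direction with the highest mean level.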

Additional observations from a re-analysis of the deposited data

How the results depend on the processing

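All 9 adenosine genes kept their direction and their call under every alternative run, 180 values in all. Log2 fold changes ranged from -3.30 to -2.83 for Adora1, -2.78 to -1.64 for Adora2a, -4.80 to -3.90 for Adora2b, 1.77 to 2.60 for Adora3, 1.63 to 2.21 for Entpd1, -5.61 to -4.72 for Entpd2, -2.16 to -0.98 for Nt5e, -1.83 to -1.10 for Adk and 1.01 to 1.56 for Slc29a1. The number of all genes called higher was 4090, against 2630 with scaling to the total without Rn45s and 2514 at 2-fold. Under quantile normalization 6 intracellular enzymes and 1 other nucleoside transporter were called lower, in place of 10 and 2. Of the G protein alpha subunits, 1 was called higher with TMM scaling, limma-voom and edgeR, against 0, and 0 to 1 with a library left out (1 without WT replicate 1 or 2 or KO replicate 1 or 3). For intracellular enzymes called higher that range was 1 to 3. Of the 36 further pathway genes called, 27 kept the call throughout and 9 lost it under at least 1 alternative, among them Ampd1, Pnp2 and Slc29a4 of those named. Libraries with the same number did not deviate together (correlations of -0.05, -0.01 and -0.01). Whether mice with the same number were handled together is not given, and these correlations cannot decide it. With the replicate block 5227 genes were called lower and 4048 higher, in place of 5299 and 4090, and no adenosine gene changed its call. The low read numbers of Adora2a and Nt5e limit their precision, as does the group size.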
